A study of Mus musculus with 16 samples.

Results

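Genes for the uptake of dietary sugar, for fructose breakdown and for glucose synthesis were followed in the ileum of mice fed a liquid diet with or without ethanol (EtOH). The set holds 9 genes: the transporters Slc5a1, Slc2a5 and Slc2a2, the fructolysis enzymes Khk and Tkfc, and the gluconeogenesis and glucose release genes Fbp1, Pck1, G6pc and Slc37a4. They were chosen by name, with earlier results of these data known, as the rows of the count table whose Ensembl ID carries one of these mouse symbols, and are 9 of the 21965 genes of the table. All 9 passed the filter on low counts that left 13811 genes for testing. RNA from 16 male C57BL/6 mice was sequenced, with 1 library per mouse. The groups were 4 wild-type (WT) mice on the pair-fed control diet (WT PF), 4 fat-1 mice on that diet (fat-1 PF), 3 WT mice on the EtOH diet (WT EtOH) and 5 fat-1 mice on the EtOH diet (fat-1 EtOH). Mice were 8 to 10 weeks old when the diets began. The fat-1 mice were heterozygous littermates of the WT mice that carry a roundworm fatty acid desaturase in every tissue, which turns n6 into n3 polyunsaturated fatty acids (PUFAs). The transgene itself was not analysed here. In the EtOH diet, a Lieber-DeCarli liquid food, EtOH rose in steps and stood at 6% (v/v) for the last 3 weeks. The PF mice were given as many calories, with maltose dextrin, a glucose polymer, in the place of EtOH. A lower intake of this carbohydrate and EtOH itself therefore cannot be told apart.

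Enterocytes take up glucose and galactose across the brush border by the sodium-coupled transporter SGLT1 (Slc5a1) and fructose by GLUT5 (Slc2a5), and sugars leave the cell towards the blood through GLUT2 (Slc2a2). Inside the cell, ketohexokinase (Khk) phosphorylates fructose, and triokinase (Tkfc) returns the glyceraldehyde that arises from it to the pathway. The intestine can also make glucose: cytosolic phosphoenolpyruvate carboxykinase (Pck1) and fructose bisphosphatase (Fbp1) catalyse committed steps, the translocase Slc37a4 carries glucose phosphate into the endoplasmic reticulum, and the phosphatase G6pc frees glucose there. Sugar uptake is known to be greatest in the proximal small intestine and to decline towards the ileum.

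The libraries held 8422645 to 11438539 counted reads. Marker genes of gut regions did not stand at the same level in all of them. The summed level of 10 markers of the proximal small intestine was 1920 to 14900 counts per 1000000 counts (CPM) in WT PF mice, 10700 to 51900 in the fat-1 PF group, 327 to 373 in WT EtOH mice and 27.2 to 460 in fat-1 EtOH mice, so that the EtOH-fed and PF mice did not overlap. Pdx1 alone of these markers had no count in any mouse of a group, which was WT EtOH. The fat-1 PF mice 2 and 4 had the highest proximal sums (51900 and 51100) and the lowest sums of 6 ileum markers, 463 and 408 CPM, against 2370 to 6810 in the other PF mice. The summed level of 7 large intestine markers was 4410 CPM in WT EtOH mouse 2 and 11500 and 12400 CPM in fat-1 EtOH mice 3 and 4, against 11.5 to 116 CPM in the other 13 mice, with Fxyd4 at 0 throughout and Scnn1b, Scnn1g and Atp12a at 0 in fat-1 PF mice. The ileum marker sum of WT EtOH mouse 2 was 6830 CPM, against 6470 and 6710 CPM in the other WT EtOH mice. Those of fat-1 EtOH mice 3 and 4 were 913 and 1870 CPM, against 4400 to 8050 CPM in the rest of their group. The label ileum is thus not matched by the markers in the same way in 5 of the 16 libraries, namely these 2 proximal-marker and 3 large-intestine-marker libraries, and results are given with and without them. Without all 5, the fat-1 PF group keeps mice 1 and 3, and the WT EtOH group mice 1 and 3. The fat-1 EtOH group then keeps mice 1, 2 and 5. Calls in those fits rest on few mice in these groups. Sums of 10 epithelium markers were 17200 to 19600 CPM in WT PF, 14400 to 20000 CPM in fat-1 PF, 16600 to 17000 CPM in WT EtOH and 11100 to 18400 CPM in fat-1 EtOH mice (median 12800, against 16400 in the fat-1 PF group), and those of 8 smooth muscle markers were 1330 to 1960 CPM in PF and 2350 to 4610 CPM in EtOH-fed mice. The part of these marker differences in the results below was not tested. Library numbers 1 to 8 were PF and 9 to 16 EtOH-fed mice, so the order of the libraries and the diet cannot be told apart.

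Start-site windows of RefSeq (build GRCm38.p6), 250 bases before to 50 after the start, were available for all 9 genes. The 5 shown are those of the gene with the largest EtOH response (Slc2a2), of the most abundant gene (Slc5a1), of the 2 genes with matches to 3 motifs each (G6pc and Khk) and of the gene whose groups overlapped throughout (Pck1). They are written 5′ to 3′ on the gene's strand, and capitals mark the letters of the motifs searched. Slc2a2 is chr3:28697653-28697952 (+), Slc5a1 is chr5:33103969-33104268 (+), G6pc is chr11:101367466-101367765 (+), Khk is chr5:30921309-30921608 (+) and Pck1 is chr2:173152823-173153122 (+).
Slc2a2: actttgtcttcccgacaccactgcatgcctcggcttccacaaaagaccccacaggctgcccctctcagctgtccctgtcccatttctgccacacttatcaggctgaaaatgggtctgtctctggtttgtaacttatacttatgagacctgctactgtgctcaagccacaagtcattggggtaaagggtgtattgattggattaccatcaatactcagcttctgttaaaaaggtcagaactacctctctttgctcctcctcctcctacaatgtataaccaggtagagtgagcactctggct
Slc5a1: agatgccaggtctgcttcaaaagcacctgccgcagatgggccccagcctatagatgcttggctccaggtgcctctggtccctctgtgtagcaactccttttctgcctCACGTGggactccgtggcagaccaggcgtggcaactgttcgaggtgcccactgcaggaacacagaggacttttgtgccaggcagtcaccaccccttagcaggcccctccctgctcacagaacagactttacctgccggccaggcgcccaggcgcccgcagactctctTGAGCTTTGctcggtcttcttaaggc
G6pc: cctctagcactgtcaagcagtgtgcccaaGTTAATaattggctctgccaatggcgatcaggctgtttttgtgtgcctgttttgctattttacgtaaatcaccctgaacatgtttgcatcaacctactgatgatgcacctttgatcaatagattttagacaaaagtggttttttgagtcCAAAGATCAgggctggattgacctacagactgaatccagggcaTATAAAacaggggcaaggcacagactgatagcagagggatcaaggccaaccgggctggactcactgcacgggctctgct
Khk: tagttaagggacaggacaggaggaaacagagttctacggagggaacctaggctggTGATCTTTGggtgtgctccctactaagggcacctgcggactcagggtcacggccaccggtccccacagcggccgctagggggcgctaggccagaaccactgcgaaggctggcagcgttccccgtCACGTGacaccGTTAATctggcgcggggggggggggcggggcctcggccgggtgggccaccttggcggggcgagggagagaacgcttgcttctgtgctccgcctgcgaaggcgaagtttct
Pck1: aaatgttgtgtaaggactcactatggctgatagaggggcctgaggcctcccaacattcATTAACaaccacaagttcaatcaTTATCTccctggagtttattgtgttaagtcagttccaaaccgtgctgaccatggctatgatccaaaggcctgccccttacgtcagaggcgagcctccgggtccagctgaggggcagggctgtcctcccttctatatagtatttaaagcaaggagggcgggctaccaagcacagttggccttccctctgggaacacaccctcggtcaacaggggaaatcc
Exact letters were searched on both strands. An HNF4 motif (CAAAGNNCA) was present in the windows of Slc5a1, Khk, G6pc and Tkfc, and in 6.36% of all 32851 windows of this length. The HNF1 motif GTTAAT was in those of Khk, G6pc and Pck1 (7.1% of all windows), and the GATA motif AGATAA in those of Fbp1 and Pck1 (11.2%). G6pc and 1 of the 3 windows of Slc37a4 held TATAAA (13.6%), 29 and 32 bases before the start. The E-box CACGTG occurred in Slc5a1 and Khk (7.15%). None of the 9 held the CDX motif TTTATG (11.9%), and Slc2a2 and Slc2a5 held none of the 6. The E-box reads the same on both strands, and no matches overlapped. These matches describe the letters of the windows only.

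Compared per length, Slc5a1 had the highest mean of the 9 genes in every group, and the highest level in every mouse other than fat-1 EtOH mouse 3. In WT PF mice it stood at 851 ± 268 CPM per kb of exon (SD, n = 4), above Khk at 183 ± 63.3 and Tkfc at 109 ± 23.2. Slc2a5 (47.7 ± 18.1), Slc2a2 (46.8 ± 31.1), Slc37a4 (29.2 ± 9.04), Pck1 (24.9 ± 10.1), Fbp1 (17.4 ± 9.29) and G6pc (9.56 ± 4.88) followed, each with a range that overlapped that of the next gene. Khk and Tkfc also overlapped in range, although Khk was the higher in all 4 mice, whereas Slc5a1 was separate from Khk, and Tkfc from Slc2a5. The order was different in WT EtOH mice, where Slc2a2 came last at 1.1 ± 0.418 CPM per kb (SD, n = 3), next to G6pc at 1.49 ± 0.815, from which it did not separate. By mean, Slc2a2 stood at rank 4 in fat-1 PF mice (123 ± 70.9 CPM per kb, n = 4) and at rank 8 in fat-1 EtOH mice (2.55 ± 3.95, n = 5). In the latter its range overlapped that of G6pc, the last gene, and it was above G6pc in 2 of 5 mice. Slc5a1 made up 61.5 to 67.4% of the summed level of the 9 genes in WT PF mice and 35 to 71.4% in fat-1 EtOH mice. In fat-1 EtOH mice the share of Pck1 ran from 2.01 to 37.5%, with a median of 9.27%. It was at most 5.01% in any mouse of the other 3 groups. The 35% of Slc5a1 and the 37.5% of Pck1 are both from fat-1 EtOH mouse 3, a large-intestine-marker library. There Pck1 stood at 52.6 and Slc5a1 at 49.0 CPM per kb.

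Levels of 8 of these genes, all but Pck1, were lower in EtOH-fed than in PF mice of the same genotype without overlap. In the fit of all 16 libraries the differences passed the test in fat-1 mice and not in WT mice. With edgeR's quasi-likelihood test and Benjamini-Hochberg adjustment over all 13811 genes, 8 of the 9 were called lower in fat-1 EtOH than in fat-1 PF mice (adjusted p of 0.05 or less), and none was called higher. Over all genes, 18.8% were called lower and 18.7% higher in this comparison. The 8 genes also had no overlap between the groups, against 13.4% of all genes not overlapping in that direction. Their median log2 fold change, Pck1 included, was -2.84, beside 0.05 over all genes, and it was -2.22 without the 3 large-intestine-marker, -1.86 without the 2 proximal-marker and -1.29 without all 5 libraries. Scaled to the epithelium markers in place of all genes, 8 of 9 were called lower, with 7.07% of all genes called lower and 25.2% higher, and with upper-quartile scaling 8 of 9, with 12.7% lower and 28.3% higher. Without the 3 large-intestine-marker libraries 8 of 9 were called lower (15.8% of all genes), without the 2 proximal-marker libraries 5 (7.95%), and without all 5 libraries 7, Fbp1 and Pck1 excepted (7.59%). In WT mice, 0 of 9 were called in the fit of all 16 libraries, where 0.0796% of all genes were. This count rested on the fit, as did the share of all genes called lower. With only the groups compared 5 members and 4.29% of all genes were called lower, by limma voom with sample weights 7 and 10.6%, by DESeq2 1 (Slc2a2) and 1.35%, and without all 5 libraries 2 and 1.76%. All 9 had lower estimates in WT EtOH than in WT PF mice, with a median log2 fold change of -1.33 beside 0.01 over all genes. An unadjusted p below 0.05 was reached by 5 of them (14.1% of all genes), and 8 did not overlap between the groups (12.1% of all genes in that direction). Averaged over the genotypes, 8 of 9 were called lower, with 17.6% of all genes, and 5 had every EtOH-fed mouse below every PF mouse, with 4.66% of all genes. Without the 2 proximal-marker libraries 7 were called lower in this average (11.8% of all genes), as Slc5a1 lost its call (-1.40, adjusted p = 0.0544). Bulk tissue was measured, so that fewer cells of a type and less RNA per cell cannot be told apart.

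**Figure D1:**
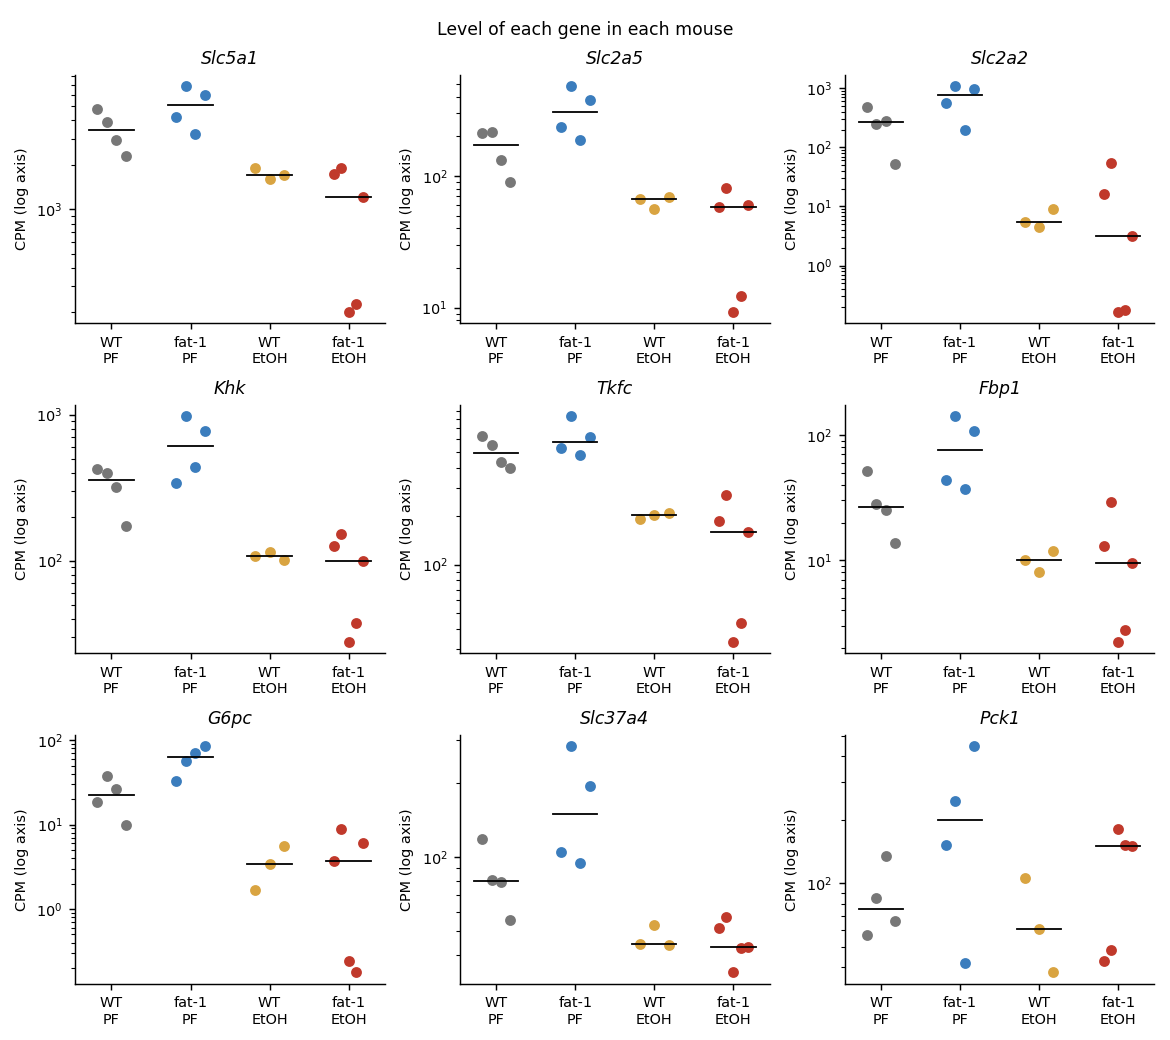
CPM of each of the 9 genes (log axis) in each mouse, by group; each point is 1 mouse and each line the median of the group. In every panel other than that of Pck1 the EtOH-fed mice lie below the PF mice of their own genotype, and fat-1 EtOH mice 3 and 4 are the 2 lowest points of each of these 8 panels.

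Of the transporters, Slc5a1 (ENSMUSG00000011034, GRCm38 chr5:33104219-33162870) stood at 4790, 3930, 2970 and 2280 CPM in WT PF mice 1 to 4, at 4230, 6870, 3230 and 5960 CPM in fat-1 PF mice, at 1890, 1610 and 1720 CPM in WT EtOH mice and at 1740, 1910, 201, 229 and 1220 CPM in fat-1 EtOH mice. Every EtOH-fed mouse was below every PF mouse, and the fat-1 EtOH mice 3 and 4, which were high in large intestine markers, were far below the other EtOH-fed mice, which held 1220 to 1910 CPM. The log2 fold change of EtOH against PF was -2.26 ± 0.56 (SE; adjusted p = 0.00711) in fat-1 mice and -1.01 ± 0.65 (adjusted p = 0.493) in WT mice. It was -1.19 in fat-1 mice (adjusted p = 0.027) and -0.94 in WT mice (adjusted p = 0.0864) without all 5 libraries that stood apart in their markers. With only the 2 proximal-marker libraries left out, the call in fat-1 mice was lost (-1.80, adjusted p = 0.0887).

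Slc2a2 (ENSMUSG00000027690, chr3:28697903-28731359), whose window holds none of the motifs, had the largest difference. It stood at 490, 252, 283 and 52 CPM in WT PF mice, 567, 1100, 198 and 963 CPM in fat-1 PF mice, 5.46, 4.51 and 9.07 CPM in WT EtOH mice and 16.2, 53.6, 0.164, 0.178 and 3.16 CPM in fat-1 EtOH mice. The values of fat-1 EtOH mice 3 and 4 rest on 2 counts each, under the floor of 3 counts. Within each genotype the diets did not overlap, but fat-1 EtOH mouse 2 (53.6 CPM) was just above WT PF mouse 4 (52 CPM), the PF mouse with the lowest proximal marker sum. The log2 fold change was -5.59 ± 1.22 in fat-1 mice (adjusted p = 0.00339) and -5.40 ± 1.53 in WT mice (adjusted p = 0.186). The 95% confidence interval in WT mice ran from -8.66 to -2.13. In fat-1 mice the value was -7.18 (adjusted p = 0.00103) without fat-1 EtOH mouse 2, the highest of its group, and the call was kept without all 5 libraries (-3.96, adjusted p = 0.0492).

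Slc2a5 (ENSMUSG00000028976, chr4:150119283-150144169) stood at 212, 215, 133 and 90 CPM in WT PF mice, 235, 483, 187 and 375 CPM in fat-1 PF mice, 67.3, 56.3 and 69.5 CPM in WT EtOH mice and 58.2, 81.2, 9.27, 12.2 and 60.5 CPM in fat-1 EtOH mice. All EtOH-fed mice were again below all PF mice. The fructose transporter fell by 2.85 ± 0.55 on the log2 scale in fat-1 mice (adjusted p = 0.00172), and had an estimate of -1.33 ± 0.63 in WT mice (adjusted p = 0.356). The value in fat-1 mice was -1.65 without all 5 libraries (adjusted p = 0.0181).

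Both enzymes of fructolysis were lower in EtOH-fed mice, and were called in fat-1 mice. Khk (ENSMUSG00000029162, chr5:30921431-30931248) stood at 427, 397, 322 and 173 CPM in WT PF mice, 342, 979, 438 and 775 CPM in fat-1 PF mice, 108, 114 and 101 CPM in WT EtOH mice and 126, 153, 27.6, 37.5 and 99.1 CPM in fat-1 EtOH mice. The highest EtOH-fed mouse (153 CPM) was below the lowest PF mouse (173 CPM). Its log2 fold change was -2.84 ± 0.48 in fat-1 mice (adjusted p = 0.00077) and -1.61 ± 0.55 in WT mice (adjusted p = 0.23). Without all 5 libraries Khk was called in both genotypes, with -1.61 (adjusted p = 0.0182) in fat-1 mice and -1.65 (adjusted p = 0.0412) in WT mice.

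Tkfc (ENSMUSG00000034371, chr19:10587791-10605654) stood at 632, 550, 433 and 399 CPM in WT PF mice, 533, 836, 480 and 616 CPM in fat-1 PF mice, 191, 204 and 209 CPM in WT EtOH mice and 186, 272, 33, 43.4 and 159 CPM in fat-1 EtOH mice. No EtOH-fed mouse reached the lowest PF mouse, and the 3 WT EtOH mice lay close together (201 ± 9.36 CPM, SD). The log2 fold change was -2.15 ± 0.48 in fat-1 mice (adjusted p = 0.00372) and -1.32 ± 0.55 in WT mice (adjusted p = 0.309). Without all 5 libraries Tkfc too was called in both genotypes (-1.29, adjusted p = 0.0161, and -1.32, adjusted p = 0.0332), whereas without only the 2 proximal-marker libraries the value in fat-1 mice was -1.86 (adjusted p = 0.0517). Of its 4617 exon bases, 924 lie opposite exons of Cyb561a3 and Ddb1 on the other strand. The use of the read strand in the counting is not given in the sources used here, so that reads of these bases may come from either gene. No such overlap was found for the other 8 genes.

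Among the genes that make and release glucose, Fbp1 (ENSMUSG00000069805, chr13:62864753-62888282) stood at 51.5, 28.3, 25 and 13.8 CPM in WT PF mice, 43.8, 142, 37.2 and 107 CPM in fat-1 PF mice, 10.1, 7.98 and 11.8 CPM in WT EtOH mice and 12.9, 29.2, 2.21, 2.77 and 9.41 CPM in fat-1 EtOH mice. The diets did not overlap within a genotype, and the 2 proximal-marker mice of the fat-1 PF group were the highest of all. The log2 fold change was -2.86 ± 0.65 in fat-1 mice (adjusted p = 0.00426) and -1.57 ± 0.76 in WT mice (adjusted p = 0.366). It was -3.59 in fat-1 mice without fat-1 EtOH mouse 2 (adjusted p = 0.00108). The call was lost without the 2 proximal-marker libraries (-1.83, adjusted p = 0.1) and without all 5 (-1.22, adjusted p = 0.16).

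G6pc (ENSMUSG00000078650, chr11:101367561-101377903) had low levels throughout: 18.4, 37.5, 26.7 and 9.87 CPM in WT PF mice, 32.4, 55.9, 69.8 and 84.6 CPM in fat-1 PF mice, 1.7, 3.46 and 5.63 CPM in WT EtOH mice and 3.71, 8.84, 0.246, 0.178 and 5.99 CPM in fat-1 EtOH mice. Its values in fat-1 EtOH mice 3 and 4 rest on 3 and 2 counts. Every EtOH-fed mouse was below every PF mouse. G6pc fell by 3.99 ± 0.74 on the log2 scale in fat-1 mice (adjusted p = 0.00132), and the estimate in WT mice was -2.67 ± 0.87 (adjusted p = 0.217). In fat-1 mice it was -4.58 without fat-1 EtOH mouse 2 (adjusted p = 0.00103) and -3.02 without all 5 libraries (adjusted p = 0.0224).

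Slc37a4 (ENSMUSG00000032114, chr9:44396852-44402968), the partner of G6pc in glucose release, stood at 118, 81, 79 and 55.5 CPM in WT PF mice, 105, 282, 94.6 and 195 CPM in fat-1 PF mice, 44.6, 52.9 and 43.9 CPM in WT EtOH mice and 51.6, 57.3, 34.1, 43 and 43.2 CPM in fat-1 EtOH mice. The diets did not overlap within a genotype, and fat-1 EtOH mice 3 and 4, although again the lowest, lay close to the other EtOH-fed mice, with mouse 4 (43 CPM) next to mouse 5 (43.2 CPM). The log2 fold change was -1.88 ± 0.29 in fat-1 mice, with the smallest adjusted p of the 9 genes (0.00053), and -0.82 ± 0.34 in WT mice (adjusted p = 0.302). It was -0.97 (adjusted p = 0.0319) in fat-1 mice without all 5 libraries.

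Pck1 (ENSMUSG00000027513, chr2:173153048-173159273) was the exception. It stood at 56.8, 84.8, 134 and 66 CPM in WT PF mice, 151, 246, 41.8 and 445 CPM in fat-1 PF mice, 106, 60.8 and 37.9 CPM in WT EtOH mice and 43, 48.1, 180, 151 and 150 CPM in fat-1 EtOH mice. The groups overlapped in every comparison, and the fat-1 EtOH mice 3 and 4, the 2 lowest mice for the other 8 genes, were the 2 highest EtOH-fed mice for Pck1. The log2 fold change of EtOH against PF was -0.95 ± 0.58 in fat-1 mice (adjusted p = 0.207; 95% confidence interval -2.18 to 0.29) and -0.32 ± 0.67 in WT mice (adjusted p = 0.861; -1.75 to 1.10). Without the 2 proximal-marker mice, which were the highest of the PF mice, the value in fat-1 mice was 0.25 (adjusted p = 0.801), and without all 5 libraries it was -0.26 (adjusted p = 0.826). It was larger, -1.43 (adjusted p = 0.150), without the 3 large-intestine-marker libraries, and ran from -1.28 to -0.35 with single mice left out.

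**Figure D2:**
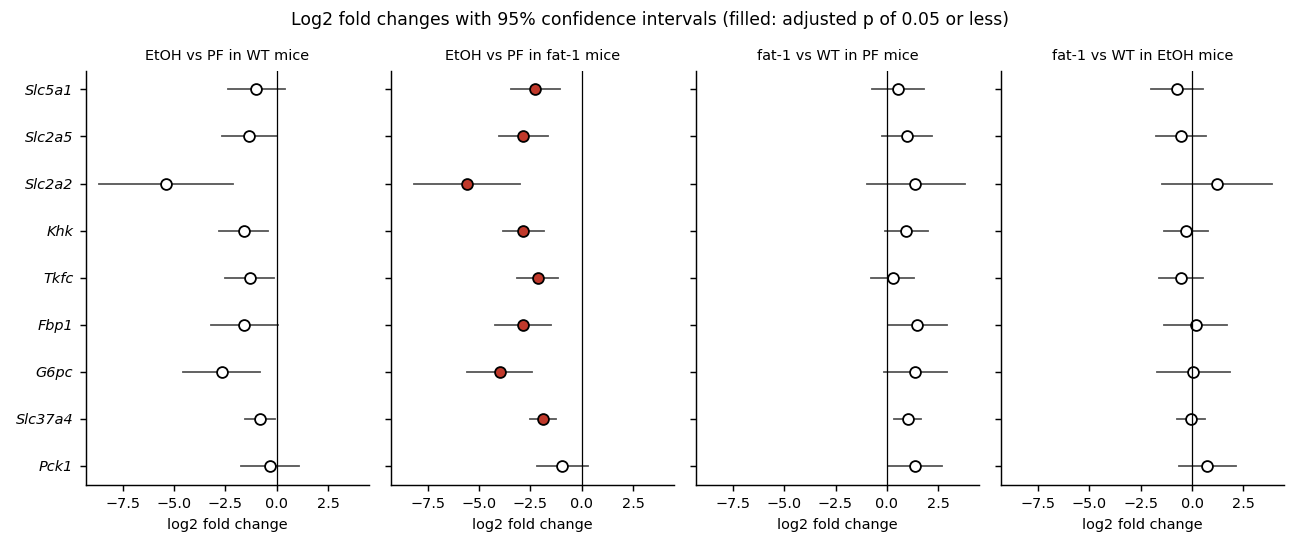
Log2 fold changes of the 9 genes (points) with 95% confidence intervals (lines) in 4 comparisons of groups; filled points have an adjusted p of 0.05 or less. Filled points occur only for EtOH against PF in fat-1 mice, where 8 of 9 are filled, and the interval of Pck1 includes 0 in both EtOH comparisons.

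The estimates of the EtOH response were larger in fat-1 than in WT mice for each of the 9 genes, but the difference itself was not called for any. The interaction of genotype and diet had 0 of 9 members called, as over all genes (0%), and all 9 log2 estimates were negative, from -1.52 to -0.20 (median -1.22, beside 0.01 over all genes). An unadjusted p below 0.05 was reached by 1 of the 9, Slc37a4 (-1.06 ± 0.44, edgeR, adjusted p = 0.595), and by 8.26% of all genes. The median of the 9 interaction estimates was -0.66 without the large-intestine-marker, -0.52 without the proximal-marker and -0.02 without all 5 libraries. The sign turned for 4 genes without all 5 libraries, namely Slc2a2 (1.24), Fbp1 (0.21), Tkfc (0.04) and Khk (0.03). The count of calls, 0 in WT and 8 in fat-1 mice, is therefore no measure of a difference between genotypes.

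Between the genotypes on the PF diet, all 9 genes had higher estimates in fat-1 mice and none was called, as for every gene tested (0% of all genes). Log2 fold changes of fat-1 PF against WT PF ran from 0.29 (Tkfc) to 1.47 (Fbp1), with a median of 1.02 beside 0.02 over all genes. Fbp1 (1.47 ± 0.67), Pck1 (1.37 ± 0.62) and Slc37a4 (1.02 ± 0.31) had an unadjusted p below 0.05 by edgeR (0.0437, 0.0446 and 0.00509), as 12.7% of all genes did, with adjusted p of 0.376, 0.379 and 0.195. No member had every fat-1 PF mouse above every WT PF mouse, against 4.25% of all genes. The 2 proximal-marker libraries are both fat-1 PF, and were the 2 highest of all 16 mice for 7 of the 9 genes, G6pc and Tkfc excepted. Without them the estimates were at most 1.14 (G6pc), with 0.44 for Fbp1, 0.25 for Slc37a4 and 0.17 for Pck1. On the EtOH diet 0 of 9 were called, with 0.00724% of all genes, and the median was -0.04 beside 0.04. The estimates ran from -0.72 (Slc5a1; 95% confidence interval -1.98 to 0.55) to 1.20 (Slc2a2; -1.48 to 3.87), 5 of them negative, so that the intervals include a more than 2-fold lower level of Slc5a1 and a more than 2-fold difference of Slc2a2 in either direction.

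Ratios of 2 genes within a library do not depend on its scaling, and 5 such ratios, chosen after the values were seen, are given as a description, without a test. Per length, Slc2a2 had a median of 0.0568 of the level of Slc5a1 in WT PF mice and 0.00206 in WT EtOH mice, and of 0.105 in fat-1 PF and 0.00185 in fat-1 EtOH mice. The log2 ratio, with 0.5 count added to each gene, was 4.12 lower in WT EtOH than in WT PF mice (mean -8.64 ± 0.51 against -4.51 ± 1.00, SD) and 5.03 lower in fat-1 EtOH than in fat-1 PF mice (-8.57 ± 2.11 against -3.54 ± 0.66), with no overlap in either. The fat-1 EtOH mice 3 and 4 enter with 2 counts of Slc2a2 each. Slc2a5 over Slc5a1 differed by -0.30 in WT and -0.46 in fat-1 mice. For the enzymes of fructose breakdown, Khk over Tkfc differed by -0.23 in WT and -0.45 in fat-1 mice, with overlap between the diets in both genotypes.

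In glucose release, the log2 ratio of G6pc over its partner Slc37a4 was -1.72 ± 0.75 in WT PF against -3.60 ± 0.86 in WT EtOH mice, and -1.17 ± 0.80 in fat-1 PF against -4.52 ± 2.32 in fat-1 EtOH mice. The diets overlapped in neither genotype, and the fat-1 EtOH mice 3 and 4 enter with 3 and 2 counts of G6pc. Pck1 over G6pc, the early and the last step of glucose synthesis, had the opposite sign: it was 2.29 higher in WT EtOH and 4.36 higher in fat-1 EtOH mice. Median ratios per length were 2.86 in WT PF and 12.4 in WT EtOH mice, and 3.18 in fat-1 PF and 17.6 in fat-1 EtOH mice. The diets were only just apart for this ratio. It was at most 4.71 in WT PF and at least 4.74 in WT EtOH mice. In fat-1 mice it was at most 3.71 on the PF and at least 3.83 on the EtOH diet. With single mice or the marker-defined libraries left out, the differences kept their sign but not their size. In fat-1 mice Slc2a2 over Slc5a1 ranged from -5.77 without EtOH mouse 2 to -3.36 without all 5 libraries. G6pc over Slc37a4 ranged from -3.86 without EtOH mouse 2 to -1.69 without the large-intestine-marker libraries, and Pck1 over G6pc from 2.03 without these libraries to 5.21 without EtOH mouse 2. Leaving out fat-1 EtOH mouse 3 or 4 or fat-1 PF mouse 3 also moved Pck1 over G6pc by more than 1.5-fold, as leaving out fat-1 EtOH mouse 4 did for G6pc over Slc37a4. In WT mice Pck1 over G6pc ranged from 1.46 without WT EtOH mouse 1 to 3.05 without WT EtOH mouse 3.

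**Figure D3:**
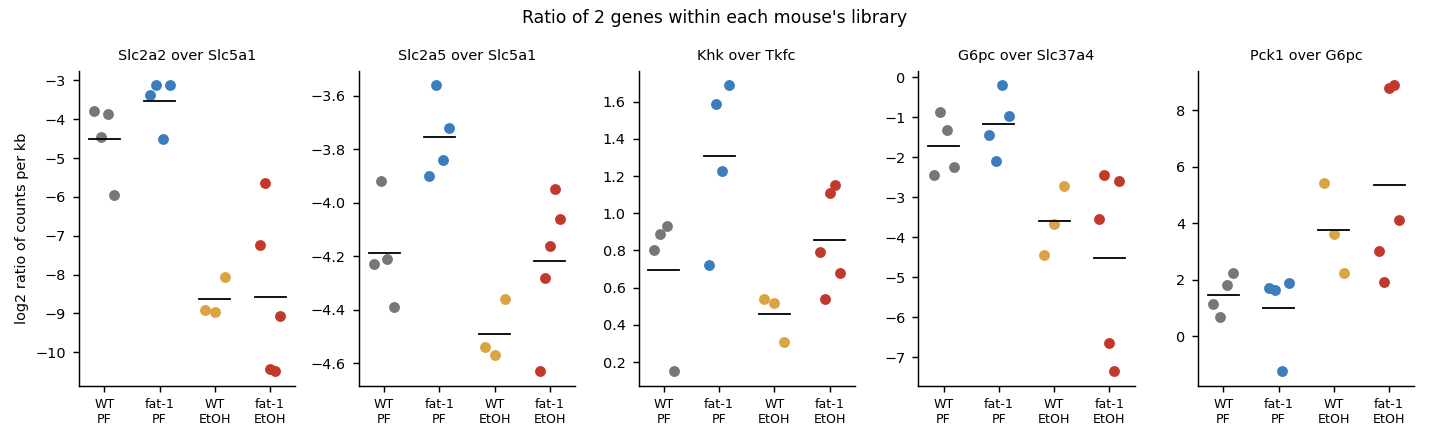
Log2 ratio of counts per kb of 2 genes within each library (0.5 count added), by group; points are mice and lines group means, and each panel has its own axis range. The ratio of Slc2a2 to Slc5a1 and that of G6pc to Slc37a4 are lower, and that of Pck1 to G6pc is higher, in EtOH-fed mice than in PF mice of the same genotype without overlap. For Pck1 to G6pc the margin is narrow: the highest WT PF mouse is at 2.23 and the lowest WT EtOH mouse at 2.24. The matching values in fat-1 mice are 1.89 and 1.93.

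Across the 16 libraries the levels of the genes other than Pck1 varied together. Pearson's r of log2 CPM over the 28 pairs of these 8 genes had a median of 0.95 and ran from 0.79 (Slc5a1 with Slc37a4) to 0.99 (Slc5a1 with Tkfc). The 8 pairs with Pck1 had a median of 0.12, from -0.01 (Tkfc) to 0.42 (Slc37a4). With the group means taken out, so that only differences between mice of the same group remain, the medians were 0.91 for the 28 pairs, with a lowest value of 0.35 (G6pc with Slc37a4), and -0.23 for those with Pck1. All points share library and depth, and the 5 libraries that stood apart in their markers contribute to these values, which are given as a description over 16 libraries.

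**Figure D4:**
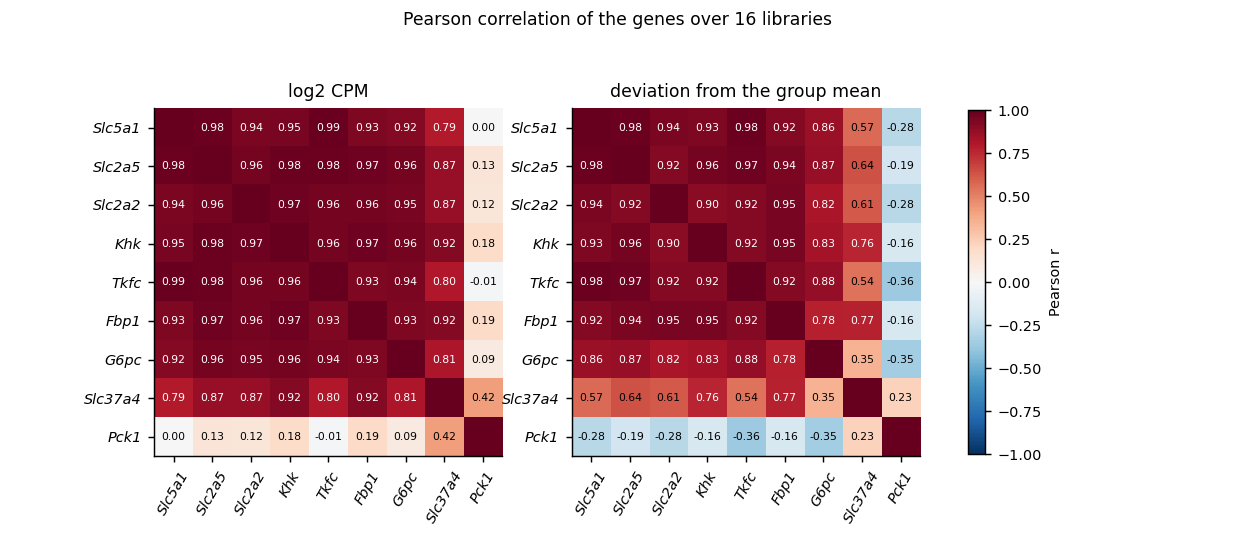
Pearson's r between the 9 genes over 16 libraries, for log2 CPM (left) and for the deviations from the group means (right), coloured from -1 to 1. Pck1 forms the pale last row and column, with -0.01 to 0.42 on the left, and G6pc with Slc37a4 has the lowest value among the other 8 genes on the right (0.35).

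Among the other 13802 genes tested, those with a high mean correlation of log2 CPM with the 9 members included Rcbtb1 (0.877), Faah (0.875), Sec14l2 (0.874) and Reep6 (0.874), over 16 libraries. For single members, Mme, a peptidase of the brush border, was nearest to Slc5a1 (0.994), Apoc3, an apolipoprotein that is also on the proximal marker list, to Khk (0.995), and the cytochrome gene Cyp4v3 to Tkfc (0.991). Other nearest genes were Gdpd2 for Slc37a4 (0.984), Smim24 for Slc2a2 (0.980), Nol7 for G6pc (0.979), Klhdc3 for Fbp1 (0.974) and Ap1s3 for Pck1 (0.862), the weakest of these.

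Other genes of these pathways were counted in 5 lists with 81 genes, of which 75 were tested. Counts below refer to EtOH against PF in fat-1 mice, in which 18.8% of all genes were called lower and 18.7% higher. In WT mice none of the 75 was called in the fit of all libraries. Without the 2 proximal-marker libraries 1 regulator was called lower (0.078% of all genes were), and without all 5 libraries 1 transporter, 2 gluconeogenesis genes, 1 fructose or galactose enzyme and 1 regulator were called lower (1.76% of all genes) and 1 transporter higher (1.65%). Of 8 further enzymes of fructose and galactose use, 6 were called lower and 1 higher (median log2 fold change -1.15). Akr1b3, an aldose reductase, was the 1 called higher (0.50 ± 0.16, adjusted p = 0.0243), and was not called without the large-intestine-marker libraries (0.52, adjusted p = 0.0513), without the proximal-marker libraries (0.26, adjusted p = 0.254) or without all 5 (0.27, adjusted p = 0.276).

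Of 10 further gluconeogenesis genes, 5 were called lower and 1 higher (median -0.73). The mitochondrial malate dehydrogenase Mdh2 fell from 1040 to 2170 CPM in fat-1 PF mice to 275 to 405 CPM in fat-1 EtOH mice (-2.22 ± 0.24, adjusted p = 0.0002), and kept the call without all 5 libraries (-1.59, adjusted p = 0.0136). The alanine transaminase Gpt2 was called higher (1.04 ± 0.31, adjusted p = 0.016), though not without the large-intestine-marker libraries (0.55, adjusted p = 0.13), without the proximal-marker libraries (0.96, adjusted p = 0.115) or without all 5 (0.45, adjusted p = 0.325). Of 20 glycolysis enzymes, 9 were called lower and 2 higher (median -0.43). Pklr, the pyruvate kinase of liver and gut, was lowest in fold change in the fit of all libraries (-1.49 ± 0.32, adjusted p = 0.0029). It was not called without the 2 proximal-marker libraries (-1.12, adjusted p = 0.0664), had a value of -0.70 (adjusted p = 0.0454) without all 5, and was then not the lowest of the list. Hexokinase 1 (Hk1) was the highest (2.32 ± 0.58, adjusted p = 0.00723), at 11.9 to 16.4 CPM in fat-1 PF mice, 144 and 132 CPM in fat-1 EtOH mice 3 and 4 and 19.3 to 30.1 CPM in the other fat-1 EtOH mice, with a value of 0.79 (adjusted p = 0.00497) without the large-intestine-marker libraries and of 2.17 (adjusted p = 0.0883) without the 2 proximal-marker libraries.

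Of the 18 other sugar transporters tested, 5 were called lower and 5 higher (median 0.54). Slc2a7, a sugar transporter gene that lies beside Slc2a5 on chromosome 4 (chr4:150148972-150168482), was the lowest. It stood at 60.8, 149, 21.9 and 94 CPM in fat-1 PF mice and at 4.28, 3.15, 0.082, 0.268 and 3.25 CPM in fat-1 EtOH mice, of which mice 3 and 4 lie at or under the level of 3 counts (0.246 and 0.268 CPM). The fitted log2 fold change was -5.21 ± 0.79 (adjusted p = 0.00046), and -3.53 (adjusted p = 0.0248) without all 5 libraries. Slc2a13, an inositol transporter, was the highest (2.71 ± 0.50, adjusted p = 0.00134), with 29.9 and 26.3 CPM in fat-1 EtOH mice 3 and 4, 6.42 to 11.3 CPM in the other fat-1 EtOH mice and 0.859 to 4.65 CPM in the fat-1 PF group. Its value was 1.89 (adjusted p = 0.00551) without the large-intestine-marker libraries and 1.30 (adjusted p = 0.0268) without all 5.

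Of 19 sugar sensing genes and regulators, 4 were called lower and 2 higher (median -0.06). Mlxipl, which encodes the carbohydrate-responsive factor ChREBP, fell by 1.43 ± 0.29 on the log2 scale (adjusted p = 0.00229), with 43.5 to 138 CPM in the EtOH group against 143 to 318 CPM in the PF group, but its call was lost without the 2 proximal-marker libraries (-0.85, adjusted p = 0.0763) and without all 5 (-0.55, adjusted p = 0.0996). Creb3l3, a factor of the small intestine and liver, had the lowest fold change (-3.06 ± 0.33, adjusted p = 0.0002; -2.15, adjusted p = 0.0126, without all 5 libraries), and the taste transducin Gnat3 the highest (1.23 ± 0.32, adjusted p = 0.00899; 1.05, adjusted p = 0.108, without the 2 proximal-marker libraries and 1.03, adjusted p = 0.166, without all 5), at a low level of 0.421 to 1.64 CPM in fat-1 mice. Hnf4a, which encodes a factor of the HNF4 motif, was not called, with overlapping levels of 873 to 1290 CPM in fat-1 EtOH and 796 to 1130 CPM in fat-1 PF mice (0.10 ± 0.14, adjusted p = 0.615; -0.06, adjusted p = 0.813, without the 2 proximal-marker libraries). Txnip, a glucose-induced gene, was not called either (0.65 ± 0.30, adjusted p = 0.0982), with 1490 and 1360 CPM in fat-1 EtOH mice 3 and 4 against 548 to 745 CPM in the other mice of the group, and had values of 0.15 (adjusted p = 0.671) without the large-intestine-marker libraries and -0.16 (adjusted p = 0.674) without all 5. With the proximal-marker libraries or all 5 left out, fewer genes were called lower in 4 of the 5 lists, and 5 in that of gluconeogenesis genes as before. Without the 2 proximal-marker libraries (7.95% of all genes called lower and 5.99% higher) 2 of 8 fructose and galactose enzymes, 5 of 10 gluconeogenesis genes, 6 of 20 glycolysis enzymes, 2 of 18 transporters and 2 of 19 regulators were called lower, and 0, 0, 1, 2 and 1 of them higher. With all 5 libraries left out (7.59% lower and 4.27% higher) the counts were 4 of 8, 5 of 10, 7 of 19, 3 of 17 and 1 of 19 lower, and 0, 0, 1, 1 and 1 higher, and the median of the transporters was 0.06.

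**Figure D5:**
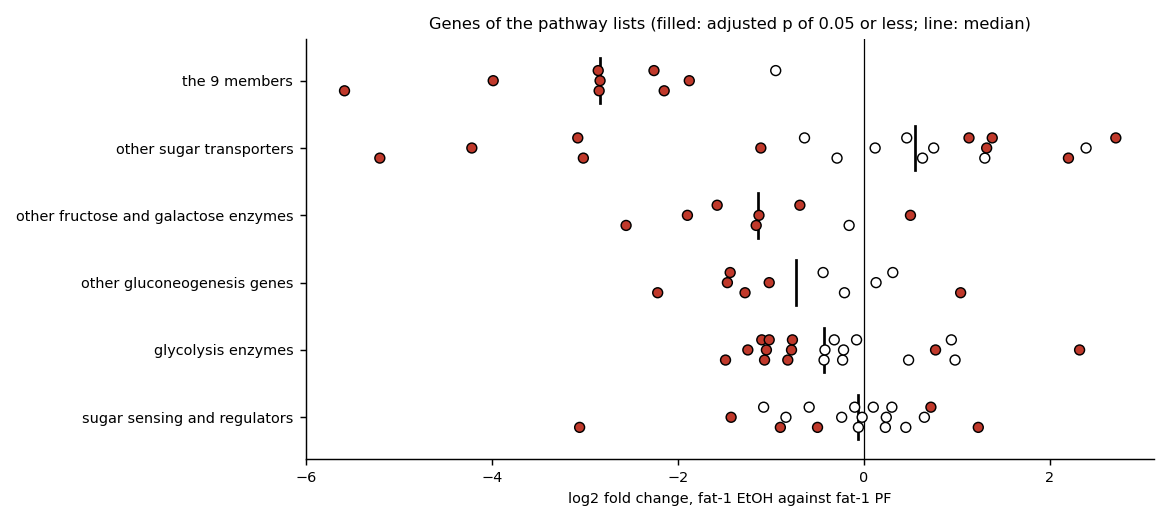
Log2 fold change of fat-1 EtOH against fat-1 PF for the 9 members and the tested genes of 5 pathway lists; each point is 1 gene, filled where the adjusted p is 0.05 or less, and the vertical line is the median of the list. The members have the lowest median (-2.84), followed by the fructose and galactose enzymes (-1.15), and the other transporters lie on both sides of 0. Without all 5 libraries that stood apart in their markers these 2 medians are -1.29 and -0.67. Members and lists were chosen with earlier results of these data known.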

How the data were processed

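Per the labels and the study's methods, poly(A) RNA of the ileum was sequenced from 16 mice, and the authors aligned the reads to mm10 with tophat2, guided by the Ensembl annotation, and counted reads per gene with htseq. The deposited table holds these raw counts; the counting options and the use of the read strand are not given in the sources used here. Quality control tools in the submitters' processing notes include FastQC 0.10.1. Symbols and positions came from the GRCm38 annotation supplied for this work, and promoter windows from RefSeq.

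Groups were taken from the sample labels. One model with a mean for each of the 4 groups was fitted to the counts of all 16 libraries with edgeR 4.0.16 (TMM scaling, quasi-likelihood F test, R 4.3.3) over the 13811 genes kept by its expression filter, with Benjamini-Hochberg adjustment over all of them and calls at an adjusted p of 0.05. Standard errors and 95% confidence intervals come from this fit. CPM are per 1000000 counted reads of the library after TMM scaling, where 3 counts, used as the floor, stand for 0.246 to 0.421 CPM. Intervals and floors cover no variation beyond that between these mice, and 3 to 5 mice per group, fewer where libraries were left out, set the precision. The same fit was run on simulated counts with known changes, and the outcome is not reported here. Alternatives were DESeq2 1.42.0, limma 3.58.1 (voom with sample weights), other scalings and filters, fits of only the groups compared, a replicate block and fits without single mice or marker-defined libraries. Genes named in the text are the 9 members, Hnf4a, Mlxipl and Txnip, the called gene with the highest and the lowest fold change of each pathway list in fat-1 mice, the 5 genes with the highest mean correlation and the nearest gene of each member, with 1 gene of this rule not reported here. Members, lists and tests were chosen with earlier results of these data known. Same-numbered mice of different groups did not vary together (mean correlation of deviations -0.0225 over 21 pairs), so that the numbers were not taken as pairs.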

Additional observations from a re-analysis of the deposited data

How the results depend on the processing

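The 8 calls in fat-1 mice stayed 8 without any single mouse, where 14.3 to 19.3% of all genes were called lower. Slc2a2, G6pc and Fbp1 moved by over 1.5-fold without fat-1 EtOH mouse 2. The calls were 6 with a stricter filter that left Slc2a2 and G6pc untested (18.6% of all genes called lower). They were 5 without the 2 proximal-marker libraries (7.95%) and 7 without all 5 libraries that stood apart in their markers (7.59%). In WT mice the 0 calls became 1 with DESeq2 (Slc2a2, adjusted p = 0.00597), 5 in a fit of only the groups compared, 7 with limma voom and sample weights and 2 without all 5 libraries, where 1.35%, 4.29%, 10.6% and 1.76% of all genes were called lower. The comparisons of genotypes and the interaction had 0 members called throughout. Over all genes, at most 1.03% were called higher and 0.153% lower for fat-1 against WT on the PF diet. On the EtOH diet these shares were at most 0.0290% and 0.00857%, and for the interaction they were 0%. The alternatives without all 5 libraries, and those of the ratios with 1 count added, were chosen after seeing the data. The replicate block left the counts of calls at 8 (fat-1) and 0 (WT). With it 17.6% of all genes were called lower and 16.8% higher in fat-1 mice, and 0.0652% in each direction in WT mice.

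Signs turned for Pck1 with EtOH in fat-1 mice (0.25 without the 2 proximal-marker libraries) and for differences between genotypes. For fat-1 against WT on EtOH these were Pck1 (-0.18) and Slc37a4 (0.12) with voom, Slc37a4 with epithelium scaling (0.23), G6pc (-0.21) and Fbp1 (-0.12) with the replicate block, Slc37a4 (0.20), Khk (0.27) and Tkfc (0.04) without the 3 large-intestine-marker libraries and Slc37a4 (0.19), Khk (0.26) and Tkfc (0.03) without all 5. For the interaction they were Slc2a2 without the large-intestine-marker libraries (0.39), Slc2a2 (0.70) and Pck1 (0.56) without the proximal-marker libraries, and Slc2a2 (1.24), Fbp1 (0.21), Tkfc (0.04) and Khk (0.03) without all 5. With single mice left out, the values for fat-1 against WT on EtOH ranged from -0.52 to 0.57 (G6pc), -0.13 to 0.05 (Slc37a4), -0.39 to 1.55 (Slc2a2) and -0.55 to 0.44 (Fbp1), and that of Slc2a2 in the interaction from -1.79 to 0.16. The cause was not tested. No ratio changed sign, although sizes moved. Values of Slc2a2 and G6pc in fat-1 EtOH mice 3 and 4 are limited by depth, at 2 to 3 counts.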
